A study of Mus musculus with 4 samples.

Results

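The BCL-2 family genes Bcl2, Bcl2l1, Mcl1, Bax, Bak1, Bcl2l11, Bid, Bad, Bbc3 and Pmaip1 were compared between regulatory T cells with and without the surface receptor Nrp1 (neuropilin-1). The 10 genes were taken as a named family, and every array feature (probe set) listed with 1 of them alone was used. This gave 29 of 45101 probe sets, for 9 of the 10 genes, and all 9 were among the 10200 genes tested. Bax was matched to no probe set, so no expression values are given for it. All cells were CD4+ Foxp3+ and were sorted from the spleen of Balb/c mice that carry a Foxp3 GFP reporter. The Nrp1-positive group and the Nrp1-negative group each had 2 arrays, numbered replicate 1 and replicate 2. Mice were 4 to 6 weeks old for 3 arrays and 4 to 8 weeks old for the array titled as Nrp1-negative replicate 1, whose source name and cell type label read as positive. No label says whether the arrays of a group hold separate mice or sorts, so the spread between these arrays may be technical. The p-values measure only how the differences within the 2 replicates disagree, once the shift between replicate numbers is removed. That error is taken mostly from other genes of similar level and may be technical too.

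BCL-2 family proteins decide whether the outer mitochondrial membrane is opened, the step that commits a cell to intrinsic apoptosis. Bcl-2, Bcl-xL (from Bcl2l1) and Mcl-1 hold the membrane closed, Bax and Bak open it, and the BH3-only proteins Bim (from Bcl2l11), Bid, Bad, Puma (from Bbc3) and Noxa (from Pmaip1) trigger opening by activating Bax and Bak or by blocking the protectors. In regulatory T cells, survival is known to depend on Mcl-1 and to be limited by Bim, and interleukin-2 signals favour the protectors.

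Bim and Puma genes are known targets of FOXO forkhead factors, which survival cytokines switch off, so the promoter windows of the family were searched for a forkhead core motif. The RefSeq promoter table (GRCm38.p6, from 250 bases before to 50 after each listed start) held 15 windows for 9 of the 10 genes. These 9 include Bax, while Pmaip1 had no window. The motif TGTTTAC, searched on both strands, was present in 2 of the 15, from Bcl2l11 and Bbc3, and in 3.65% of all 32851 windows. The cytokine-factor motif TTCNNNGAA, also searched on both strands, was present in 0 of the 15 and in 8.30% of all windows. The stretches of 30 bases that hold the forkhead match are shown with the match in capitals, both on the + strand, the Bcl2l11 match being the reverse complement.
Bcl2l11, chr2:128125800-128125829: aagacactaggGTAAACAcgccggggtggg
Bbc3, chr7:16310083-16310112: tctggcgggttTGTTTACaaacaatggggt
The match begins at position -227 from the listed start in Bcl2l11 and -167 in Bbc3. The Bcl2l11 match lies before the gene, whose span begins at 128126038. The Bbc3 match lies inside the gene's span, 16308398 to 16318334, so its listed start is an internal one. A match describes these letters and does not show binding by a factor.

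No BCL-2 family gene differed between Nrp1-positive and Nrp1-negative cells past the threshold. With limma and the replicate number as a block, 0 of the 9 genes passed an adjusted p of 0.05 over all 10200 genes, where 46 genes (0.451%) did. Without adjustment, Bid alone was below 0.05, against 8.61% of all genes, and limma without the block or without its mean-variance trend called 0 of all 10200 genes, so those fits say nothing further about the 9. Of the 9 genes, Pmaip1 and Bid had the largest mean differences, 0.56 and 0.40 on the log2 scale, both made up mostly of a low value on Nrp1-negative replicate 1. Mcl1, Bcl2l11 and Bad had mean differences of 0.08 or less at the probe sets that stand for them.

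**Figure D1:**
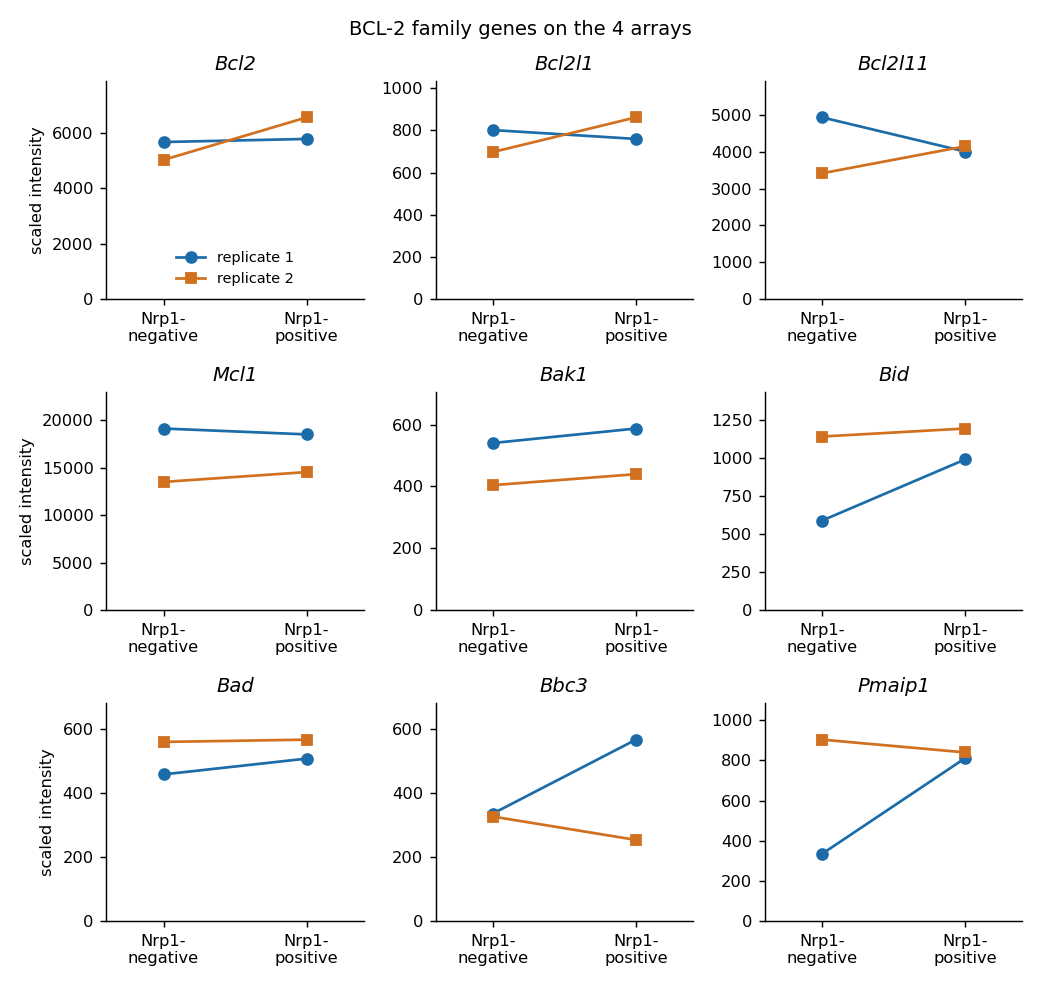
Scaled intensity (linear axis from 0) of the probe set that stands for each of 9 BCL-2 family genes, with 1 point per array and a line joining the Nrp1-negative and the Nrp1-positive array of a replicate number. The lines of Bak1 run nearly parallel. Those of Bcl2l1, Bcl2l11, Mcl1, Bbc3 and Pmaip1 run opposite ways in the 2 replicates. Bid and Pmaip1 are low on Nrp1-negative replicate 1.

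Intensities are signals scaled to one trimmed mean, and a difference is the Nrp1-positive less the Nrp1-negative value of log2(intensity + 18.3), so it understates the change of dim probe sets. For each gene, the brightest probe set past the filter (percentile 50 of mean level) stands for the gene. Values are given for replicate 1 first. Levels are not set against each other between genes, since probe sets bind with different strength. In bulk RNA, fewer cells with a transcript and less of it per cell cannot be told apart.

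The sort was visible in Nrp1 itself, at 339 and 1223 on the Nrp1-negative arrays and 9344 and 7745 on the Nrp1-positive arrays, replicate 1 first. The array with the conflicting labels thus had the lowest Nrp1 signal. The Foxp3 probe set was dim on every array, from 2.16 to 36.4, below the filter, so it gave no check of Foxp3. No label names a batch, but arrays numbered 1 and 2 differed and are treated here as separate batches. The Gapdh control was read near its 3-prime end over its 5-prime end. Its ratios were 1.75 and 1.54 in replicate 1 and 0.763 and 0.711 in replicate 2, Nrp1-negative first. All 8 myeloid marker genes were tested, and their summed intensity was 2168 and 2946 in replicate 1 against 15640 and 13515 in replicate 2, in the same order. Bright genes weigh most in such a sum, and Lyz2 alone read 1087.5 and 1602 against 8992.5 and 8504. The median shift of the 8 genes from replicate 1 to replicate 2 was 1.95 (log2). The sum over 13 of 14 proliferation genes was 16582 and 15448 against 53040 and 40826, and their median shift was 2.51. Only 2 of 8 B cell markers passed the filter. Both groups are in both batches, so differences are given within each replicate number.

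Of the 3 protectors, Bcl2 was higher on the Nrp1-positive array of both replicates at the probe set that stands for it. Its intensities were 5668 and 5023 on the Nrp1-negative arrays and 5779 and 6556 on the Nrp1-positive arrays, means of 5345 ± 456 and 6167 ± 550 (SD, n = 2). Both Nrp1-positive arrays lay above both Nrp1-negative ones, and Bcl2 was the member of the 9 whose groups did not overlap, as they did not in 21.1% of all genes. The difference was 0.03 within replicate 1 and 0.38 within replicate 2, with a mean of 0.21 and a 95% interval of -0.06 to 0.47 (adjusted p = 0.688, limma with the replicate block).

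The other Bcl2 probe sets gave another picture in replicate 1. All 5 lay above 0 within replicate 2, by 0.19 to 0.50, but within replicate 1 they ranged from -0.72 to 0.19, with 2 of 5 above 0. The second brightest read 6831 and 4831 on the Nrp1-negative arrays and 4131 and 5540 on the Nrp1-positive arrays, so its highest and lowest value were both in replicate 1. The mean difference was -0.26 for this probe set and -0.20 for the third brightest, and over all 5 it was 0.05, against 0.21 at the brightest. None of the 5 passed when each probe set was tested by itself (lowest adjusted p = 0.771, limma with the replicate block).

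Bcl2l1, which encodes Bcl-xL, read 802 and 697 on the Nrp1-negative arrays and 760 and 862 on the Nrp1-positive arrays, and the groups overlapped. The difference was -0.08 within replicate 1 and 0.30 within replicate 2, with a mean of 0.11 and a 95% interval of -0.23 to 0.45. The mean over its passing probe sets was -0.016. Of its 4 probe sets 2 were too dim to pass, and the other passing one had differences of -0.02 and -0.27.

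Mcl1, the protector on which regulatory T cells are known to depend, was read by 6 probe sets, all past the filter. At the probe set that stands for it, it read 19130 and 13509 on the Nrp1-negative arrays and 18512 and 14545 on the Nrp1-positive arrays. Both replicate 1 arrays were higher than both replicate 2 arrays, whichever the group. The difference was -0.05 and 0.11 within the replicates, with a mean of 0.03 and a 95% interval of -0.23 to 0.29. Over all 6 Mcl1 probe sets, the mean difference ranged from -0.02 to 0.19, and the difference within replicate 1 from -0.05 to 0.32.

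Of the pore-forming effectors, Bak1 had nearly the same small difference in both replicates. It read 540 and 404 on the Nrp1-negative arrays and 587 and 440 on the Nrp1-positive arrays, which overlap because replicate 1 was higher in both groups. The difference was 0.12 within replicate 1 and 0.12 within replicate 2, but the 95% interval of the mean, -0.25 to 0.48, included 0 (adjusted p = 0.923, limma with the replicate block). The second Bak1 probe set was below the filter, at 58.0 and 31.2 on the Nrp1-negative arrays and 88.2 and 54.1 on the Nrp1-positive arrays, with differences of 0.48 and 0.55.

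Of the genes of activators of Bax and Bak, Bcl2l11, the gene of Bim, had opposite differences in the replicates: 4935 and 3418 on the Nrp1-negative arrays against 4006 and 4151 on the Nrp1-positive arrays. The Nrp1-negative arrays held both the highest and the lowest value. The difference was -0.30 within replicate 1 and 0.28 within replicate 2, with a mean of -0.01 and a 95% interval of -0.32 to 0.30. Its 5 passing probe sets had mean differences between -0.12 and 0.16, and 1 of 5 lay above 0 within replicate 1 against 4 of 5 within replicate 2. Its direction turned to 0.02 under quantile normalisation, so no direction is given for Bcl2l11.

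Bid, which links death receptors to mitochondria once cleaved by caspase-8, was 0.40 higher in the mean. It read 589 and 1140 on the Nrp1-negative arrays and 990 and 1192 on the Nrp1-positive arrays. Nrp1-negative replicate 1, the array with the conflicting labels, stood apart at the low end, and the groups overlapped. The difference was 0.73 within replicate 1 and 0.06 within replicate 2, with a 95% interval of 0.01 to 0.78 (unadjusted p = 0.0434 and adjusted p = 0.560, limma with the replicate block). The other passing Bid probe sets had differences of 0.18 and 0.37 and of 0.56 and -0.20.

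**Figure D2:**
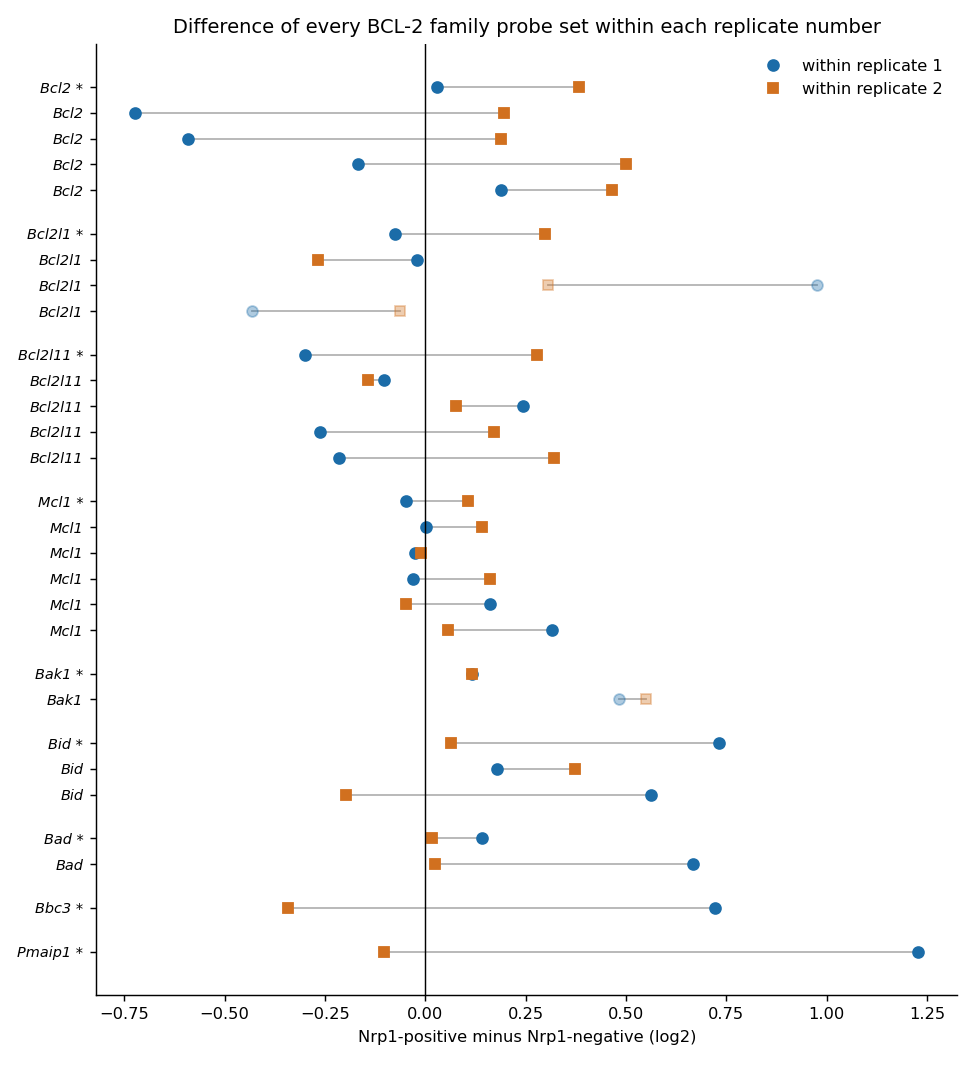
Difference between the Nrp1-positive and the Nrp1-negative array (log2) within replicate 1 (circles) and replicate 2 (squares) for all 29 probe sets, grouped by gene. Faint symbols are the 3 probe sets below the filter, and an asterisk marks the probe set that stands for its gene. All 5 Bcl2 probe sets lie above 0 in replicate 2, and Pmaip1 reaches 1.23 in replicate 1.

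Bad, which binds Bcl-2 and Bcl-xL unless it is phosphorylated, read 458 and 559 on the Nrp1-negative arrays and 507 and 566 on the Nrp1-positive arrays. Its difference was 0.14 within replicate 1 and 0.02 within replicate 2, with a 95% interval of -0.28 to 0.44. The second Bad probe set read 350 on Nrp1-negative replicate 1 and 564 to 574 on the other 3 arrays, so that its differences were 0.67 and 0.02. The mean over both Bad probe sets was 0.21, against 0.08 at the brighter one.

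Bbc3, the gene of Puma and a target of p53 and FOXO factors, had opposite differences. It read 337 and 327 on the Nrp1-negative arrays and 567 and 254 on the Nrp1-positive arrays. The Nrp1-positive arrays were the highest and the lowest of the 4, and the Nrp1-negative ones lay between them. The difference was 0.72 within replicate 1 and -0.34 within replicate 2, with a 95% interval of -0.39 to 0.77. Bbc3 has 1 probe set, so no other reading of it was at hand.

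Pmaip1, the gene of Noxa, which neutralises Mcl-1, had the largest mean difference of the 9 genes. It read 336 and 902 on the Nrp1-negative arrays and 811 and 839 on the Nrp1-positive arrays, so 3 arrays lay close together and Nrp1-negative replicate 1 was low. The difference was 1.23 within replicate 1 and -0.10 within replicate 2, with a mean of 0.56, a 95% interval of -0.04 to 1.16 and an adjusted p = 0.609 (limma with the block). Nrp1-negative replicate 1 is the array with the conflicting labels and the wider age range. Pmaip1 too has 1 probe set.

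**Figure D3:**
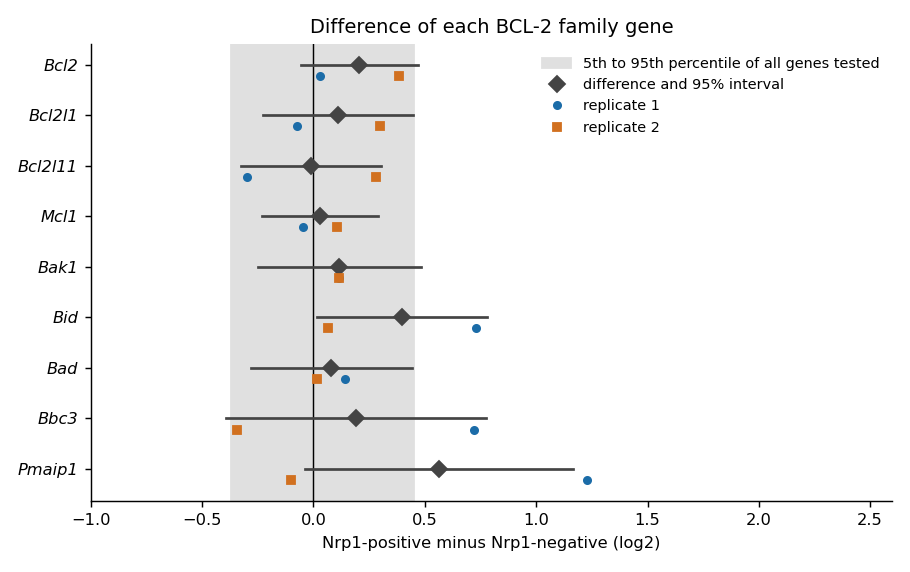
Mean difference of each gene on the log2 scale (diamonds) with its 95% interval from limma with the replicate block (lines), and the difference within replicate 1 (circles) and replicate 2 (squares). The grey band spans percentiles 5 to 95 of all genes tested, -0.37 to 0.45, and the means of 8 of 9 genes lie within it, Pmaip1 lying above.

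Across the family, 4 of 9 genes (Bcl2, Bak1, Bid and Bad) were higher on the Nrp1-positive array of both replicates, 0 were lower in both and 5 took opposite signs. The 4 of 9 with one sign in both replicates compare with 53.9% of all genes, and 27.9% of all genes were higher in both. The median difference was 0.12, against 0.0038 over all genes, and the median absolute difference was 0.12 in both. Of the 26 passing probe sets, 10 were higher in both replicates, 3 lower in both and 13 opposite. The 95% interval included 0 for 8 of 9 genes, all but Bid, and 1 of 9, that of Pmaip1, reached a difference of 1 (a doubling on this scale). These intervals, at the probe sets that stand for the genes, together ran from -0.39 to 1.16. Changes of up to 1.31-fold lower or 2.24-fold higher lie within them, and other probe sets of a gene can reach lower. The other passing Bcl2l1 probe set had a mean difference of -0.14 with a standard error of 0.33. An equal level in both groups is not shown by these tests.

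For 7 of 9 genes the shift between replicate numbers was larger than the difference between groups, close to the 71.8% of all genes. The median absolute shift was 0.40 for the members and 0.28 for all genes. Averaged over the groups, replicate 2 less replicate 1 was 0.71 for Pmaip1, 0.60 for Bid, -0.57 for Bbc3, -0.42 for Mcl1 and -0.40 for Bak1. Some of these came mostly from 1 group: Pmaip1 went from 336 to 902 on the Nrp1-negative arrays and from 811 to 839 on the Nrp1-positive arrays, and Bid from 589 to 1140 and from 990 to 1192. Bbc3 went from 337 to 327 on the Nrp1-negative arrays and from 567 to 254 on the Nrp1-positive arrays. Probe sets of a gene did not shift alike: those of Bcl2 ran from -1.23 to 0.35, those of Mcl1 from -0.65 to 0.22 and those of Bcl2l11 from -0.25 to 0.88. The control ratios, the myeloid sum and the proliferation sum given above moved with the same replicate number, and their part in these shifts was not tested.

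**Figure D4:**
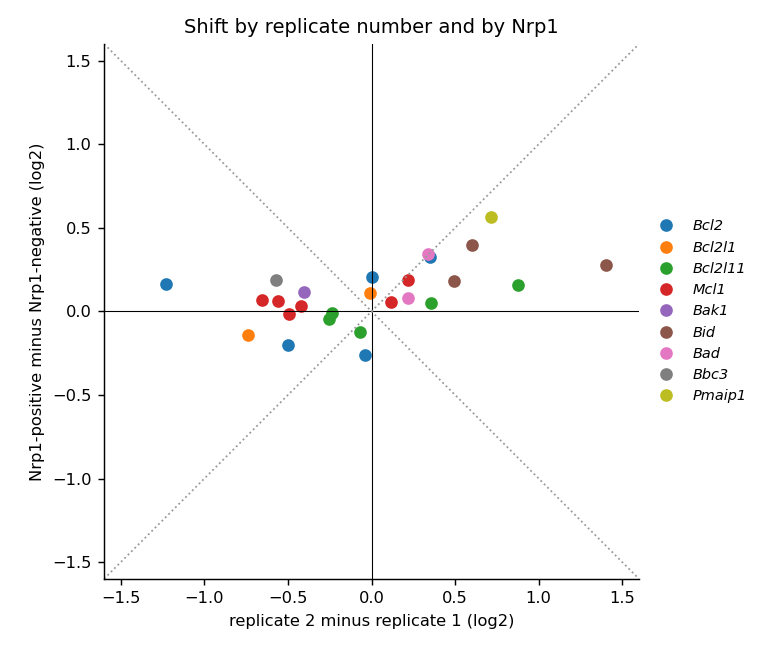
Mean difference by Nrp1 (vertical axis, log2) against the shift from replicate 1 to replicate 2 (horizontal axis, log2) for the 26 probe sets past the filter, coloured by gene. The dotted diagonals mark equal sizes, and 21 of the 26 points have the larger value across. Points run from -1.23 to 1.41 across and from -0.26 to 0.56 up.

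Of 68 other genes of the apoptosis pathway, in 5 groups by role, 58 had a probe set listed alone, 51 passed the filter and 0 passed the test in limma with the block, with 6 (11.8%) below an unadjusted p of 0.05, against 8.61% of all genes. The median difference of the 51 was 0.03 and the lowest adjusted p was 0.135. In both replicates 12 of the 51 were higher and 15 lower, and 24 took opposite signs. Over all genes 27.9% were higher in both, 26.0% lower in both and 46.1% opposite. Of 14 other BCL-2 family genes, 6 were tested, with differences from -0.22 to 0.63 and a median of 0.27. Several of these 6, with the largest difference among them, were dim, at percentiles 4.8 to 9.7 of mean level among the tested genes. The 15 tested genes of the apoptosome, caspases and mitochondrial release had a median of 0.0046 and ranged from -0.20 to 0.26. The 5 tested inhibitors of caspases had a median of 0.06, the 7 of the death receptor branch -0.11 and the 18 upstream regulators 0.03.

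The 6 genes below an unadjusted p of 0.05 are named after their values were seen. Il7r, a chain of the receptor for the survival cytokine interleukin-7, read 5730 and 4277 on the Nrp1-negative arrays and 8330 and 5560 on the Nrp1-positive arrays. Its difference was 0.54 within replicate 1 and 0.38 within replicate 2 (adjusted p = 0.135, limma with the replicate block). Stat5a, a transcription factor that interleukin-2 and interleukin-7 activate, differed by 0.32 and 0.41 (adjusted p = 0.319), and Il2ra, which encodes the high-affinity receptor subunit for interleukin-2, by 0.26 and 0.28. Birc2, an inhibitor of apoptosis protein, differed by 0.22 and 0.25, and Parp1, a DNA repair enzyme that caspases cleave, by 0.24 and 0.28. Fas, the death receptor, differed by -0.24 and -0.35. Adjusted p was 0.466 for Il2ra, 0.565 for Birc2, 0.564 for Parp1 and 0.481 for Fas (limma with the replicate block). None of the 6 passed the threshold. All 6 had one sign in both replicates, which the choice by p favours.

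**Figure D5:**
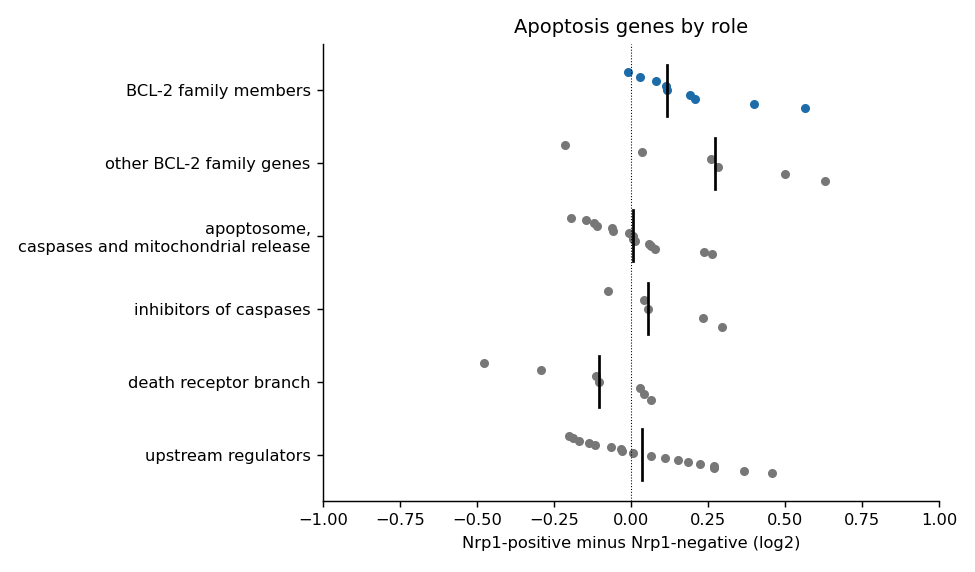
Difference of each tested gene (log2, Nrp1-positive minus Nrp1-negative) for the 9 BCL-2 family genes and 5 groups of other apoptosis genes. Points are genes and black bars are group medians, from -0.11 in the death receptor branch to 0.27 among the other BCL-2 family genes.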

How the data were processed

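RNA of the 4 sorted samples was labelled with biotin for a 1-colour Affymetrix array. The deposited values are linear probe set intensities, made by the authors with MAS5, the tool that the submitters' processing notes name. The sources used here do not give its version or settings. The deposited intensities had a trimmed mean (2% off each end) of 500.003 on both replicate 1 arrays and 150.001 on both replicate 2 arrays.

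All 4 arrays were brought to one trimmed mean and analysed as log2(intensity + 18.3), the pseudocount being 0.25 of the mean array median. Gene names came from the platform annotation: 34945 probe sets had 1 gene, 932 several and 9160 none here, and 64 were controls. The brighter part of the probe sets, from percentile 50 of mean level up, was kept. Limma 3.58.1 in R 4.3.3 (mean-variance trend, two-sided, Benjamini-Hochberg over 10200 genes, threshold 0.05) had the replicate number as a block, since batches hold 1 array of each group. With it, 1 residual degree of freedom joined 7.84 from the variance prior, so errors rest mostly on other genes of similar level. The labels do not say what the numbers share. Deviations from the group means of the arrays with one number correlated at 0.730 over genes. Every member was named with all its probe sets. Other genes were to be named only if past the adjusted threshold. The 6 apoptosis genes named by unadjusted p depart from that rule. The fit was tested on simulated data whose noise depended on mean level alone, and no result here rests on that test. Members and lists were chosen with earlier results of these data known. Drawings used matplotlib 3.10.9. With 2 arrays a group, the number of arrays limits the precision.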

Additional observations from a re-analysis of the deposited data

How the results depend on the processing

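No BCL-2 family gene was called under any of the 10 alternatives with a test (lowest adjusted p = 0.276 in limma). Of these, the fits with no replicate block, with no mean-variance trend and with the array of conflicting labels moved called 0 of all genes, so they show nothing about the stability of the members' result. Of 90 member values under these alternatives, 84 kept their direction and 6 turned, none of them called. Many of the 84 could not turn. With no block, no trend, no filter, a stricter filter or each probe set by itself, the difference is that of the main fit. With the mean of a gene's passing probe sets Bcl2l1 was -0.016 and Bcl2l11 0.0065, and with quantile normalisation Bcl2l11 was 0.019. With the array of conflicting labels (Nrp1-negative replicate 1) moved to the Nrp1-positive group, Bcl2l11 was 0.28, Bbc3 -0.34 and Pmaip1 -0.10. Bid kept its direction there, at 0.064. These are the values within replicate 2, since no Nrp1-negative array is then left in replicate 1. That setting keeps 1 Nrp1-negative array. Leaving out any array of a number leaves the value within the other number, with no test, and for 5 of 9 genes the values within the replicates had opposite signs. With the mean of passing probe sets Bcl2 was 0.047, Mcl1 0.07 and Bad 0.21. The count over all genes, 29 higher and 17 lower, depended on the settings. It was 107 and 62 with quantile normalisation, 123 and 61 with the mean of probe sets, 44 and 32 with a pseudocount 4 times larger, and 41 and 30 with one 4 times smaller. It was 0 and 0 with no replicate block (147 genes below an unadjusted p of 0.05), with no mean-variance trend (873 genes) and with the array of conflicting labels moved (390 genes). The cause was not tested. Without a filter, with a stricter one, and with each probe set by itself, counts stayed within 1.5 times. MAS5 detection calls were not used here, so the level at which dim probe sets carry no signal is unknown.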
